A study of Mus musculus with 24 samples.

Results

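Rnf44, a gene on mouse chromosome 13, held the strongest TCF7L2 peak of the developing cortex at both stages examined. It is 1 of 21951 protein-coding genes, and it was chosen by the rank of its promoter peak in the TCF7L2 lists, so its TCF7L2 fold enrichments are given as a description with no test. Its neighborhood was taken as the gene (ENSMUSG00000034928.16, chr13:54679399-54693907 of GRCm38, minus strand) with 50 kb on either side, which held 19 peaks over 6 lists. The libraries came from cortex of wild-type (WT) mice of CD1 background at the embryonic stages E15.5 and E18.5 (days of gestation), from chromatin precipitated with antibodies against 3 ASD-associated transcriptional regulators (TRs), ARID1B, FOXP1, and TCF7L2, with 2 ChIP and 2 input replicates per TR and stage, 24 libraries in all. No allele or treatment was added in any group, and the tissue was a mixture of progenitors, neurons, and other cells, so a peak cannot be assigned to 1 cell type. The labels call the third target TCF4, an older name of TCF7L2 and also the symbol of another gene, whereas the study's antibody list names TCF7L2, which is used here. Each of the 6 peak lists stands for 1 TR at 1 stage and was treated as called on merged replicates, as the methods describe, although it is attached to a first replicate. With 1 list per TR and stage, no value has a spread between replicates, and intervals given below cover counting error of reads only.

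RNF44 is a RING finger protein of the RING-H2 type, the family of E3 ubiquitin ligases that pass ubiquitin from a conjugating enzyme to a substrate. TCF7L2 is a high mobility group (HMG) box transcription factor that takes β-catenin to its target genes when the Wnt pathway is active and acts with corepressors when it is not. FOXP1 is a forkhead transcription factor of progenitors and projection neurons, and ARID1B is a DNA-binding subunit of the BAF chromatin remodeling complex, which moves nucleosomes and has no single recognition motif.

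The 18 annotated transcripts of Rnf44 (GENCODE vM21) begin at separate places. The outermost starts, between 54693812 and 54693907, belong to 5 transcripts, of which 4 are coding, and are called the upstream promoter here. A further 11 transcripts, 10 of them coding, begin between 54687253 and 54688274, inside the gene as drawn from the outer start, and are called the internal promoter. The other 2 are retained-intron transcripts that begin between 54684072 and 54684407. RefSeq places the start of the upstream promoter at 54693960 and that of the internal promoter at 54687808, and distances to a start below are measured from these positions, positive in the upstream direction.

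The sequence under the strongest TCF7L2 peak is shown because its letters can be set against the motif that TCF7L2 is known for. It is the 250 bases before the RefSeq start of the upstream promoter (GRCm38.p6, chr13:54693961-54694210, minus strand, read 5′ to 3′ toward the gene), and the TCF7L2 summit lay 100 bp before the start at E15.5, and it lay 65 bp before it at the later stage. Capitals mark the ETS core CCGGAA and the SP/KLF core GGGCGG on either strand.
Rnf44 upstream promoter: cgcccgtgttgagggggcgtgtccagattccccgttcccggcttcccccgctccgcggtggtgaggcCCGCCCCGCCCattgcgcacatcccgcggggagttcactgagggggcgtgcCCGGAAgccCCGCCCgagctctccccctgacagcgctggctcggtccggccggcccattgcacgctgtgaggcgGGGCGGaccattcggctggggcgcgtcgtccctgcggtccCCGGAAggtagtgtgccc
The stretch held 2 ETS cores and 4 SP/KLF cores, a pair of which share a base, and no TCF/LEF core (TCAAAG). Of all 32851 promoter entries of RefSeq, 12% held an ETS core, 32.7% an SP/KLF core, and 13.8% a TCF/LEF core in the same 250 bases. Its GC content was 74.4%, above that of 95.4% of these entries (median 52.4%), and its ratio of observed to expected CpG was 0.868 (median of all entries 0.373).

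The internal promoter did hold a TCF/LEF core close to the TCF7L2 summit. The site is shown with its flanks, 30 bases in all (chr13:54687932-54687961, minus strand), with the core in capitals, which reads TCAAAG on the other strand.
Rnf44 internal promoter site: cggccttgtgggCTTTGAagtatgaggtgg
Measured to its lowest coordinate, the core lay at −14 bp from the TCF7L2 summit of E15.5 and at −92 bp from that of E18.5, on the side of the gene body. The 250 bases before this start had a GC content of 68.4% and a ratio of observed to expected CpG of 0.929.

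**Figure D1:**
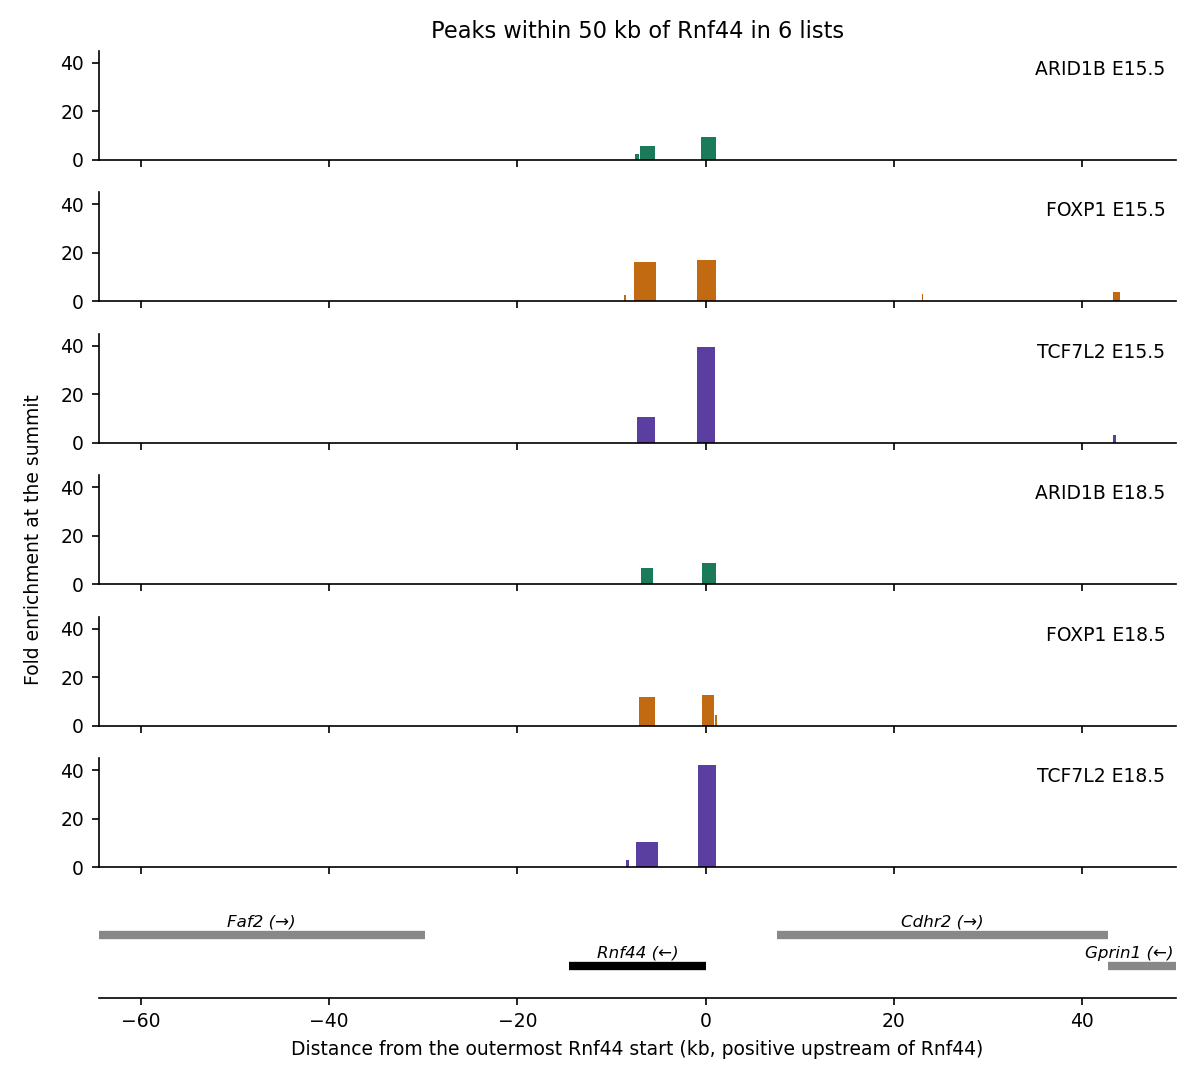
Peaks that overlap Rnf44 or the 50 kb on either side, 1 row per list. Bars span each peak and reach its fold enrichment at the summit. The x axis is the distance in kb from the outermost annotated start, and genes are drawn at the bottom with their direction. Bars stand at both Rnf44 promoters in all 6 rows. They are tallest for TCF7L2 over the upstream promoter (39.7 and 42.0) and short for ARID1B (5.7 to 9.35).

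The upstream promoter carried a peak of every TR at both stages. Fold enrichment is the number of ChIP reads at the summit, scaled down where the ChIP library was larger than its input, over the background that the peak caller expects, with 1 added to both, so it is not the plain ratio of reads to background. The scale of 1 ChIP read ran from 0.561 to 1 and the background from 2.81 to 8.63 reads over the lists, and read numbers were recovered from the lists under the Poisson model of that caller. For TCF7L2 at E15.5, the peak spanned chr13:54692949-54694930, and 379 reads lay over its summit at 54694060, a fold enrichment of 39.7 (95% Poisson interval 35.8 to 43.9). At E18.5, the TCF7L2 peak spanned chr13:54693090-54695056, with 383 reads at 54694025 and a fold enrichment of 42.0 (37.9 to 46.5). Both peaks stood first by fold enrichment and by p-value, among 32992 and 53173 peaks.

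FOXP1 gave the next highest values at this promoter. At E15.5, its peak had 134 reads at the summit and a fold enrichment of 17.1 (14.3 to 20.2), rank 980 of 64059 peaks. At E18.5, it had 84 reads and a fold enrichment of 12.6 (10.1 to 15.6), rank 897 of 24872. ARID1B had 104 reads and a fold enrichment of 9.35 (7.66 to 11.3) at E15.5, rank 2273 of 71411. At E18.5, ARID1B had 61 reads and a fold enrichment of 8.70 (6.68 to 11.1), rank 3974 of 68447. These peaks lay within the highest 1.53% and 3.61% of FOXP1 peaks and the highest 3.18% and 5.81% of ARID1B peaks, whereas TCF7L2 led its lists. All 6 peaks were wide, 1327 to 1982 bp, each above the 96th percentile of width in its list.

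Fold enrichments of separate lists carry differences in depth and antibody, so Rnf44 was also set against the other genes of each list. Peaks were given to a gene where they overlapped the 2000 bp upstream of any of its starts, and the strongest of them was taken. By this measure, the Rnf44 value for TCF7L2 was 6.20 times that of the median gene with a promoter peak at E15.5, and at E18.5 it was 6.40 times. For ARID1B, it was 1.81 and 1.55 times the median gene, and for FOXP1 1.61 and 1.46 times. Rnf44 ranked 1 among 12587 and 13439 genes for TCF7L2, 392 among 12907 and 975 among 12585 for ARID1B, and 1144 among 13571 and 957 among 12063 for FOXP1, at E15.5 and E18.5 in turn.

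A promoter peak as such was common. Of all protein-coding genes, 58.8% had an ARID1B promoter peak at E15.5, 61.8% had one of FOXP1, and 57.3% had one of TCF7L2. At E18.5, the shares were 57.3%, 55.0%, and 61.2% in the same order. All 6 lists had a promoter peak at 11376 genes, 51.8% of those examined, and Rnf44 was 1 of these. Several promoter peaks per gene, whether before 1 start or before separate starts, were less common, since 1000 genes (4.56%) had 2 or more in each of the 6 lists, Rnf44 among them.

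**Figure D2:**
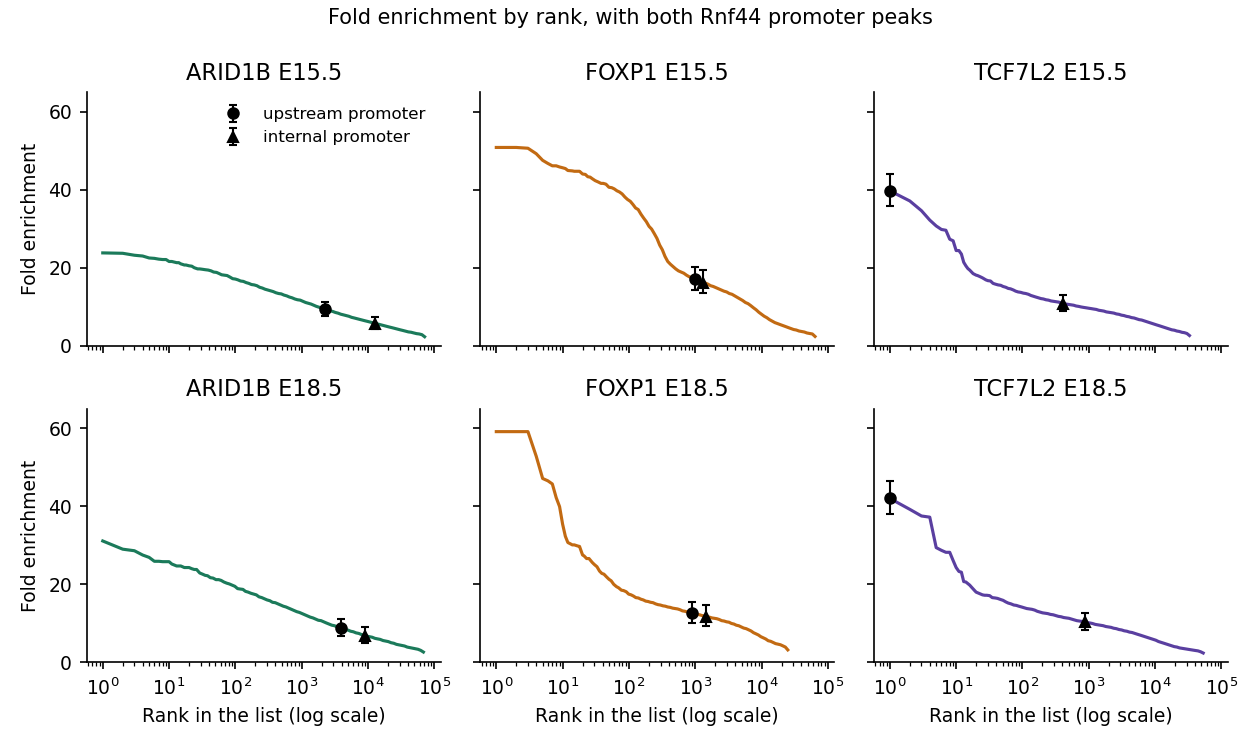
Fold enrichment against rank (log scale) for all peaks of each list, as a line, with the upstream (circle) and internal (triangle) promoter peak of Rnf44 and 95% Poisson intervals of counting error as bars. The upstream peak is first in both TCF7L2 panels and lies at ranks 897 to 3974 in the others.

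The TCF7L2 summit was close to the height that the lists allow. No list held a summit of more than 400 reads, which is the number that 1 read per position and strand would give with reads extended to 200 bp, although how duplicates were handled is not stated in the labels or methods. The Rnf44 summit reached 94.8% and 95.8% of this number for TCF7L2, against 33.5% and 21.0% for FOXP1 and 26% and 15.2% for ARID1B. The Poisson intervals of the TCF7L2 summits reach up to 419 and 423 reads, past this number, so their upper ends cannot be read as a range of possible values. Among TCF7L2 peaks, 4 had 300 reads or more at each stage, and 2 had 350 or more. The part that this limit has in the near-equal TCF7L2 values of the 2 stages was not tested.

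The peaks just behind Rnf44 in the TCF7L2 lists were few and of several kinds. The second peak of each list, with fold enrichments of 37.1 and 39.2 at the earlier and later stage, overlapped the promoters of the predicted genes Gm26917 and Gm42418 on chromosome 17, and both values fall within the counting interval of the Rnf44 peak. A separate peak directly beside it (chr17:39847350-39848967 at E15.5) had 34.6 and 37.2. At E15.5, a peak on chromosome 11 that overlapped no promoter had 30.7. Axin2, the scaffold of the β-catenin destruction complex and a standard target of Wnt signaling, had a promoter peak of 32.2 (307 reads) at E15.5 and 37.5 (342 reads) at E18.5. It was second to Rnf44 among protein-coding genes at both stages. The next places by gene, mt-Nd5, mt-Nd6, and mt-Cytb, fell to a single mitochondrial peak of 29.8 and 29.4, which was higher for FOXP1 (50.8 and 59.1) than for TCF7L2. Rnf44 and Axin2 were thus the protein-coding genes of the nucleus with the highest TCF7L2 promoter values at both stages.

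The internal promoter of Rnf44 also carried peaks of all 3 TRs. For TCF7L2, it had 102 reads and a fold enrichment of 10.8 (8.82 to 13.1) at E15.5, rank 415, and 93 reads and 10.3 (8.33 to 12.6) at E18.5, rank 886. FOXP1 had 127 reads and a fold enrichment of 16.2 (13.5 to 19.3) at E15.5, and 78 reads and 11.7 (9.34 to 14.6) at E18.5. ARID1B was lowest, with 63 reads and 5.7 (4.41 to 7.27) at E15.5, and 48 reads and 6.87 (5.10 to 9.07) at E18.5. Every one of these summits lay in an exon annotated as untranslated in at least 1 transcript, and 4277 to 5164 bp without a peak call separated the internal from the upstream peak.

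The TRs differed in how their reads were divided between the promoters. FOXP1 reads at the upstream summit were 1.06 times those at the internal summit at E15.5 (95% interval of counting error 0.822 to 1.36) and 1.08 times at E18.5 (0.782 to 1.48), so the promoters did not differ beyond counting error. ARID1B gave ratios of 1.65 (1.20 to 2.29) and 1.27 (0.856 to 1.90), the first above 1 beyond counting error and the second not. TCF7L2 gave 3.72 (2.98 to 4.67) and 4.12 (3.28 to 5.22), and at each stage these intervals lie apart from those of the other TRs. Since the TCF7L2 value at the upstream promoter chose the gene, these ratios are a description, and their intervals take no account of the limit of 400 reads. Among the genes with 2 or more promoter peaks for TCF7L2, the ratio of the strongest to the next was lower than that of Rnf44 in 99.3% of 2714 genes at E15.5 and in 98.6% of 3962 at E18.5, with medians of 1.42 and 1.59. For FOXP1, 5.07% and 11.6% of such genes had a lower ratio than Rnf44, and for ARID1B 71.1% and 38.7% did.

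**Figure D3:**
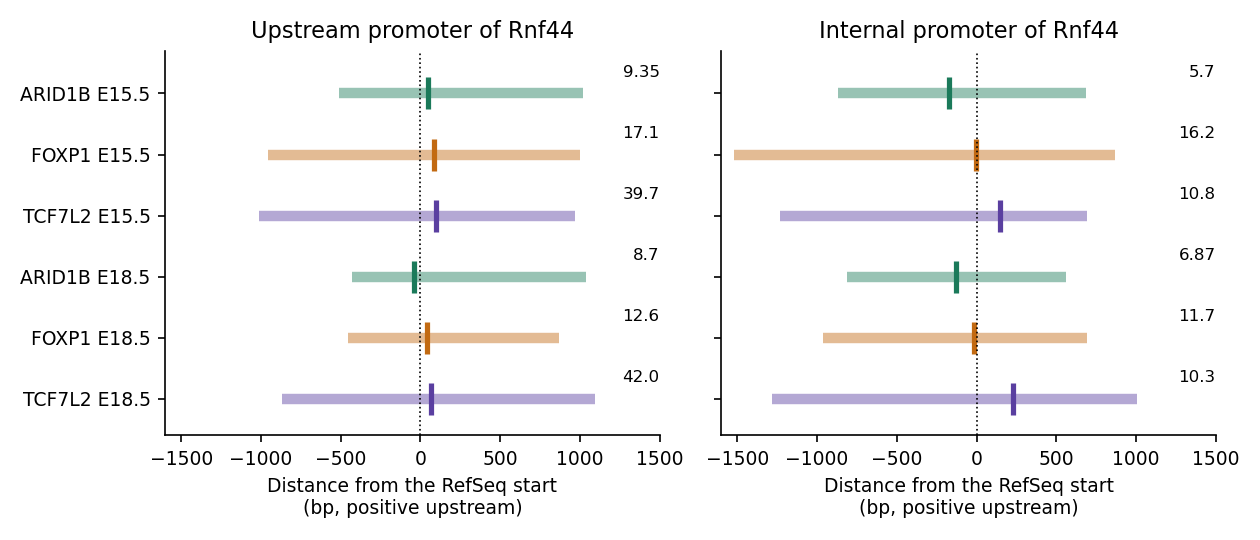
Extent (bar) and summit (vertical mark) of each peak at the upstream and internal promoters of Rnf44, by distance in bp from the RefSeq start (dotted line). The number at the right of each row is the fold enrichment, and in both panels and at both stages the TCF7L2 summit lies farthest upstream and the ARID1B summit farthest toward the gene body.

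The summits of the 3 TRs followed the same order at both promoters and both stages. At the upstream promoter, the summits at E15.5 stood 100 bp (TCF7L2), 83 bp (FOXP1), and 48 bp (ARID1B) before the start, within 52 bp of each other. At E18.5, they stood 65 and 39 bp before the start for TCF7L2 and FOXP1, and the ARID1B summit lay past it at −39 bp, so the span was 104 bp. Medians of this span were 137 bp over 11148 protein-coding genes at E15.5 and 145 bp over 10540 at E18.5. These are the genes whose strongest promoter peaks of the 3 TRs share a base at that stage. Genes whose strongest peaks lie apart were left out, so long spans are underrepresented. At the internal promoter, the TCF7L2 summits stood 150 and 228 bp before the start, those of FOXP1 at −6 and −14 bp, past the start, and those of ARID1B at −175 and −129 bp, farther into the gene, at E15.5 and E18.5 in turn. The order TCF7L2, FOXP1, ARID1B from the upstream side was found at 16.5% of genes at E15.5 and 14.9% at E18.5. Here too, only genes whose strongest promoter peaks of the 3 TRs share a base were counted. The precision of a summit is not given in the lists, and the extension of reads to 200 bp is longer than the whole span at the upstream promoter. The part common to all 6 upstream peaks was 1298 bp long (chr13:54693533-54694830), and that of the internal peaks 1372 bp (chr13:54686997-54688368).

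In motif terms, both common parts were GC rich, 66.3% and 66%, and only 1.85% and 1.68% of their bases were marked as repeats. The upstream part held 1 TCF/LEF core, 318 bp farther upstream than the TCF7L2 summit of E15.5, and 4 ETS, 6 SP/KLF, and 4 E-box (CANNTG) cores. The internal part held 1 TCF/LEF core, which is the site shown earlier, and 1 forkhead (TGTTTA), 1 ETS, 3 NFY (CCAAT), 7 SP/KLF, and 8 E-box cores. Neither held the full TCF7L2, FOXP1, or TCF4 consensus of the study's motif table. Such single matches are common, since 47.0% of TCF7L2 promoter peaks at E15.5 held a TCF/LEF core within 1298 bp around the summit, 47.8% an ETS core, and 84.4% an SP/KLF core. The TCF7L2 consensus was found in 0.571% of them.

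Closer to the summits, the 200 bp around the upstream TCF7L2 summit held no TCF/LEF core at either stage, 2 ETS cores, and 4 SP/KLF cores at E15.5 and 3 at E18.5. At E15.5, 6.86% of TCF7L2 promoter peaks held a TCF/LEF core in this window, 16.1% an ETS core, and 49.5% an SP/KLF core. The window around the internal TCF7L2 summit held 1 TCF/LEF core at each stage. No forkhead core was found around either FOXP1 summit of Rnf44 at E15.5, a core that 5.36% of FOXP1 promoter peaks held. These are matches of letters only. Over the Axin2 promoter, the TCF7L2 peak of E15.5 (2729 bp) held no TCF/LEF core in the 200 bp around its summit either, but 2 in 400 bp, where Rnf44 had none. Over its whole length, it held 5 TCF/LEF cores and 1 full consensus, and the Rnf44 peak (1982 bp) held 1 core and no full consensus. At least 1 such match was held by 80.7% (core) and 1.31% (consensus) of TCF7L2 promoter peaks in a window of 2729 bp, and by 66.9% and 0.945% in 1982 bp. The Sfr1 peak held 1 TCF/LEF core over its whole length and the Ptov1 peak none.

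Besides the main peak of each list at the upstream and internal promoters, the neighborhood held 7 weak peaks with fold enrichments of 2.59 to 4.38, from 21 to 30 reads at the summit. Of these, 4 touched the 2000 bp before some start of Rnf44, and 2 lay inside the merged loci of the upstream and internal promoters. For FOXP1 at E15.5, they lay in an intron of Rnf44 (chr13:54685245-54685444, fold enrichment 2.78), in an intron of Cdhr2 (chr13:54716862-54717061, 3.04), and in an untranslated exon of Gprin1 (chr13:54737165-54737964, 3.92). The last of these overlapped a TCF7L2 peak of the same stage (chr13:54737200-54737544, 3.06). The Rnf44 intron also had a TCF7L2 peak at E18.5 (chr13:54685411-54685731, 3.06) and an ARID1B peak at E15.5 (chr13:54686404-54686865, 2.59). The seventh, FOXP1 at E18.5 (chr13:54694935-54695144, 4.38), lay upstream of Rnf44 between genes. Merged over the TRs, the peaks formed 5 loci at E15.5 and 3 at E18.5, of which 2 at each stage, at the upstream and internal promoters, had all 3 TRs.

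The neighboring genes had ordinary promoter values. Of the 13 protein-coding genes taken as reference (those that overlap the 50 kb flanks and the 5 next on either side), 10 had a promoter peak in all 6 lists, and Cdhr2, Eif4e1b, and Hk3 had none in any. Among the 10, TCF7L2 fold enrichments ran from 3.68 to 6.71 at E15.5 and from 4.93 to 7.77 at E18.5, around the median of all genes (6.40 and 6.57) and far below 39.7 and 42.0. For FOXP1, they ran from 6.33 to 16.1 and from 5.27 to 10.4, and for ARID1B from 2.95 to 5.97 and from 2.95 to 6.73, so Rnf44 was highest of its neighborhood in every list, although the highest values of the neighbors for FOXP1 at both stages, 16.1 and 10.4, and for ARID1B at E18.5, 6.73, fall within the counting intervals of the Rnf44 peak. Faf2, a ubiquitin-binding protein of endoplasmic reticulum degradation, had 6.50 and 6.46 for TCF7L2, and Gprin1, a neurite outgrowth protein, 4.41 and 5.8. Cdhr2, a cadherin of intestinal brush borders that starts only 7.55 kb from Rnf44 and points away from it, had no promoter peak of any TR.

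**Figure D4:**
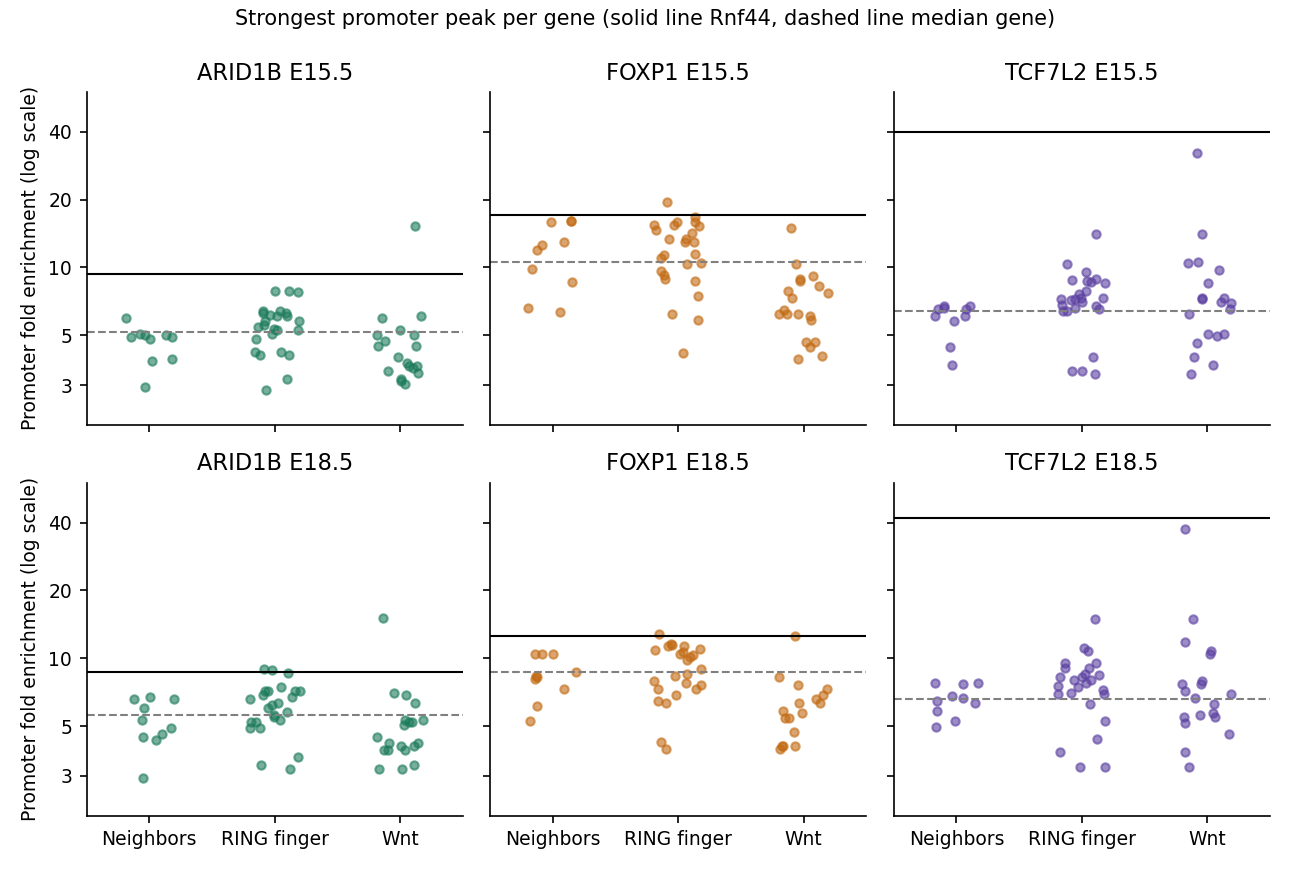
Fold enrichment of the strongest promoter peak per gene (points, log scale) for 13 neighbors, 26 RING finger genes, and 22 Wnt pathway genes in each list. Genes with no promoter peak are left out. The solid line marks Rnf44 and the dashed line the median of all protein-coding genes with a peak. Rnf44 stands above every point for TCF7L2 and among the highest points for ARID1B and FOXP1.

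Other RING finger genes served as a reference for the family. All 26 had a TCF7L2 promoter peak at both stages, against 57.3% and 61.2% of all protein-coding genes, with medians of 7.23 and 7.88 against 6.40 and 6.57 over all genes. That all of them lie below Rnf44 follows from its choice as the first gene of both lists. Znrf3, which removes Wnt receptors from the cell surface and is itself a Wnt target, was highest of the list for TCF7L2 with 14.0 and 15. Rnf149 followed at E15.5 with 10.3, and had 9.52 at E18.5. The lowest were Rnf43, a relative of Znrf3 with the same role, at 3.37 and 3.83, Rnf128 at 3.47 and 3.28, and Pja1 at 3.47 and 3.28. For FOXP1, by contrast, 1 of the 26 genes was above Rnf44 at each stage, Rnf6 with 19.4 at E15.5 and Rnf167 with 12.8 at E18.5 (named for that place after their values were seen). For ARID1B, none of the 26 was above Rnf44 at E15.5 and 2 were at E18.5, Rnf111 with 8.98 and Rnf126 with 8.84 (named likewise).

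The list of 22 Wnt pathway genes, most of them known targets of TCF and LEF factors, had a TCF7L2 promoter peak at 20 genes at each stage, 90.9%, against 57.3% and 61.2% of all protein-coding genes, with medians of 6.97 and 6.79, near those of all genes. Axin2 (32.2 and 37.5) stood alone near Rnf44, followed by Znrf3 (14.0 and 15) and Tle3, a corepressor that TCF factors recruit (10.6 and 11.8). The lowest values at E15.5 were those of Rnf43, Wif1, a secreted Wnt inhibitor (3.68 and 5.14), and Lgr5, a receptor that enhances Wnt signaling (4.00 and 3.28). Dkk1 and Dkk4, secreted Wnt inhibitors, had no TCF7L2 promoter peak. Axin2 was lower than Rnf44 in the other lists, with 9.11 and 8.21 for FOXP1 and 6.06 and 7.01 for ARID1B. The median gene of these lists had 10.6 and 8.65 for FOXP1 and 5.17 and 5.61 for ARID1B. The ARID1B value of Axin2 at E18.5, 7.01, falls within the counting interval of the Rnf44 peak (6.68 to 11.1).

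The genes whose promoter values over the 6 lists were most like those of Rnf44 were Sfr1, Ptov1, Axin2, Bahcc1, and Tjp3, at distances of 0.734, 1.10, 1.35, 1.46, and 1.66 on the log2 scale. The distance is taken over 6 lists, each relative to its median gene, for 11375 genes. Since Rnf44 lies farthest from the median gene in the TCF7L2 lists, by which it was chosen, the measure picks other genes with high TCF7L2 values. Sfr1, a partner of homologous recombination, had TCF7L2 fold enrichments of 29.6 and 28.2, FOXP1 15.7 and 13.1, and ARID1B 8.99 and 9.26. Ptov1 had 27.3 and 28.2 for TCF7L2, 16.2 and 13.8 for FOXP1, and, below Rnf44, 5.97 and 6.73 for ARID1B. Bahcc1 had 21.4 and 20.7 for TCF7L2, 17.0 and 14.2 for FOXP1, and 10.9 and 12.1 for ARID1B. Tjp3, a tight junction scaffold, had 20.6 for TCF7L2 at E18.5 and less at E15.5, and 6.06 and 7.57 for ARID1B. Measured by percentile within each list in place of log2 fold enrichment, none of these 5 genes was among the nearest 5.

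Among the 50 genes with the highest TCF7L2 promoter values, Rnf44 was not among the highest for the other TRs. For ARID1B, it took place 19 of the 49 with a promoter peak at E15.5 and 29 of 50 at the later stage. For FOXP1, it took place 30 of 50 and then 35 of the 48 with a promoter peak. The median of these genes was 7.93 for ARID1B and 18 for FOXP1 at E15.5, against 9.35 and 17.1 at Rnf44, and 9.26 and 14.7 at E18.5, against 8.70 and 12.6. Between the stages, 40 genes were among the highest 50 of both TCF7L2 lists. These counts take each gene separately, also mitochondrial genes that share a peak. The peak shared by mt-Nd5, mt-Nd6, and mt-Cytb had 23.7 and 28.6 for ARID1B and 50.8 and 59.1 for FOXP1. Each of these genes thus takes a place above Rnf44, and places without mitochondrial genes were not computed.

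For the series as a whole, the ChIP libraries recovered from the lists had 57.3 to 94.3 M reads, except for FOXP1 at E18.5 with 46.9 M, whose input was smaller still at 26.3 M. Promoter peaks at 12 marker genes of cortical progenitors and neurons were found for 10 (FOXP1, E18.5) to 12 genes per list, against 55.0% to 61.8% of all protein-coding genes, and at 10 genes of other tissues, among them Alb and Myod1, in no list. The TCF7L2 consensus lay in 0.218% of 200 bp windows around TCF7L2 summits at E15.5, against 0.109% for ARID1B and 0.117% for FOXP1, whereas the E-box motif of the other gene named TCF4 lay in 3.06%, 5.63%, and 3.92%. At E18.5, the TCF7L2 consensus lay in 0.214%, 0.111%, and 0.0885% of windows in the same order, and the E-box motif in 3.26%, 5.5%, and 2.19%, so that the E-box motif was more frequent around TCF7L2 than around FOXP1 summits at that stage. Among promoter peaks only, the consensus lay in 0.117%, 0.0833%, and 0.046% at E15.5 and in 0.103%, 0.074%, and 0.0722% at E18.5. The E-box motif lay in 1.1%, 2.35%, and 1.55% of promoter peaks at E15.5 and in 1.38%, 2.22%, and 0.808% at E18.5.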

How the data were processed

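ChIP-seq of ARID1B, FOXP1, and TCF7L2 (labelled TCF4) in WT mouse cortex was read from 6 deposited peak lists. Per the labels and methods, the authors aligned single-end reads to mm10 with BWA (0.7.15), filtered them with SAMtools, and called peaks with MACS2 (2.2.7) on merged replicates against input, with a constant background and reads extended to 200 bp. The deposited lists hold, per peak, the positions, a fold enrichment (the ratio of scaled summit reads to background, with 1 added to both), −log10 of the p-value and of the q-value, and a score, which was not used. Each list is attached to a first replicate and was treated as merged.

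For each list, the background and the scale of 1 read that give every pair of fold enrichment and p-value (within 0.01 of −log10 p) were searched for, which gave whole reads (within 0.05) at every summit. The search was tested on simulated lists. Read intervals are exact 95% Poisson intervals, and ratios of reads have exact binomial intervals. They cover counting error only.

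Genes and starts came from GENCODE vM21 and a promoter was the 2000 bp upstream of any start, with 1 base of overlap. RefSeq starts, promoter sequences, and the genome (GRCm38.p6) were used for sequences, with motifs searched on both strands. Peaks outside chromosomes 1 to 19, X, Y, and M were left out (18 to 50 per list). The most like genes were found by Euclidean distance of log2 fold enrichment relative to the median gene. Named genes were those of the neighborhood, the 5 highest in each TCF7L2 list, the 5 most like Rnf44, and the 3 highest and lowest of the RING finger and Wnt lists by TCF7L2 at E15.5, except 1 gene that is not reported here. The gene, the lists, and the rules were chosen with earlier results of these data known. Analyses used Python 3.11.15 with numpy 2.4.6, pandas 2.3.3, and scipy 1.17.1. Since there is 1 list per TR and stage, no test between groups was made. Alternatives were the ranking measure, the window, a stricter p-value, the promoter definition, the motif window, and the likeness measure.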

Additional observations from a re-analysis of the deposited data

How the results depend on the processing

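Of 64 values recomputed under other settings, 31 were equal to the value reported, 22 changed by up to 1.5 times, and 11 changed by more. The 22 include the share of genes with an ARID1B promoter peak at E18.5, which was 40.1% in place of 57.3% at −log10 p of at least 15. Ranked by p-value, or among promoter peaks only, the upstream Rnf44 peak remained first for TCF7L2 at both stages, and among promoter peaks only its rank became 424 for ARID1B at E15.5 and 975 at E18.5. With 100 kb on either side, the number of peaks became 14 for ARID1B at both stages, 17 and 12 for FOXP1, and 12 and 16 for TCF7L2 at E15.5 and E18.5. At −log10 p of at least 15, FOXP1 at E15.5 had 2 peaks in place of 5, which are the promoter peaks. In 100 bp around the internal TCF7L2 summit of E18.5, the number of TCF/LEF cores was 0 in place of 1. By percentile within each list, 0 of the 5 most like genes remained.

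No paired analysis was possible because each TR and stage has only 1 list here, treated as one of merged replicates. For the same reason, leaving out a replicate could not be run, and no value has an error between animals. Depth limits the read numbers at weak peaks, where 21 to 30 reads carry wide intervals, and the apparent limit of 400 reads at a summit bounds how far the highest peaks can stand apart.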
